A study of Mus musculus with 2 samples.

Results

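The genes described here are 56 components of the actin, tubulin and intermediate filament cytoskeleton, chosen by symbol from the 54532 genes of a deposited count table, and all 56 were found, each under 1 gene ID. The library comes from 4T1 cells, which derive from a mammary tumour of a BALB/c mouse and here carry a knockout of Cd28, and its poly(A) RNA was sequenced with a protocol that mentions no molecular identifiers. The series also lists a wild-type 4T1 sample, which was not analysed here because the remaining count column carries a heading that matches no sample label. No age, treatment, clone number or editing method is given for the line. All values are therefore levels in 1 knockout library with no replicate, and no effect of Cd28 loss was measured. A low level in all cells and expression in few cells cannot be told apart in such a bulk library. It held 15565990 counted reads. Cd28 itself had 8 reads, which without a control level does not check the label.

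The cytoskeleton consists of actin filaments, microtubules and intermediate filaments. Actin filaments grow from monomers kept in reserve by thymosins and profilins, are severed by cofilins, are stabilised by tropomyosins and are pulled on by myosin II. Microtubules are built from dimers of alpha and beta tubulin, each of which is encoded by several genes. Vimentin filaments are typical of mesenchymal cells and of carcinoma cells that have gained mesenchymal features, and lamins line the inner face of the nuclear envelope. Assembly of actin filaments is directed by molecular switches such as Rac1 and Cdc42. Cells of muscle and nerve use their own versions of many of these proteins, and several of these versions serve as markers of those cells.

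Sequence decides how well reads from these gene families can be told apart, so the stretches that separate close relatives are shown first. They are reference sequence of C57BL/6J (GRCm38, GENCODE vM21 transcripts), written 5′ to 3′ in the sense of the gene. Differences of BALB/c from it were not examined. The first pair gives the first 60 coding bases of the cytoplasmic actin genes, where capitals mark the 9 bases that differ between them.
Actb: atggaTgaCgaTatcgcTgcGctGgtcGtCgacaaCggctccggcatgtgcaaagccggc
Actg1: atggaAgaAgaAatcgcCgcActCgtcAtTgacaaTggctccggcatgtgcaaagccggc
The next set gives the last 60 coding bases of beta tubulin genes, which encode the acidic tail in which the isotypes differ most. Capitals mark bases not matched to Tubb5 when the whole coding sequences were aligned. They numbered 16 in Tubb4b, 15 in Tubb2a, 18 in Tubb2b and 29 in Tubb3.
Tubb5: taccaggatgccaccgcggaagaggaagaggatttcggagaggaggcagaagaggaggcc
Tubb4b: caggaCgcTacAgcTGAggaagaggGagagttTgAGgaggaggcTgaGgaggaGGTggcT
Tubb2a: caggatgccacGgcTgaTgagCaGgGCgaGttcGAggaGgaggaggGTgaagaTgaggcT
Tubb2b: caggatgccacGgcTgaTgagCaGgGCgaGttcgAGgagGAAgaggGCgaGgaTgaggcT
Tubb3: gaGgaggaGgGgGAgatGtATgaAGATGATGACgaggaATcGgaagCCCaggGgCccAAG

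Over whole coding sequences the families differed widely in likeness. Actb and Actg1 were 88.6% identical, with 128 differing bases of 1125 and no identical run longer than 62 bases. The alpha tubulin genes were much closer. Tuba1b was 98.3% identical to Tuba1a and 97.9% identical to Tuba1c, and an identical run of 468 bases joined Tuba1b with Tuba1c. Among beta tubulins, Tubb2a and Tubb2b were 96.5% identical, whereas Tubb5 matched no other beta tubulin of the list at more than 84.6%. Reads from Tubb5 can therefore be placed by sequence more readily than reads from Tuba1a, Tuba1b or Tuba1c.

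Most of these genes were expressed, and many were among the most abundant mRNAs of the library. Detection meant a count of at least 10 reads. By that rule 48 of the 56 members (85.7%) were detected, against 52.2% of all 22046 protein-coding genes. Levels per length are given as TPM, the reads per base of deposited length, rescaled to a total of 1000000, and a percentile is the percentage of the 11497 detected protein-coding genes with a lower TPM. Of the members, 44 (78.6%) lay above the median TPM of this reference set, against 26.1% of all protein-coding genes. These shares describe a chosen list and are no test. The median percentile over all 56 members was 95.5, and 38 lay at percentile 90 or above, which by definition about 10% of the reference set reaches. Together the members took 416672 reads, or 2.68% of the library (exact binomial 95% interval 2.67% to 2.68%, counting error only). The 4 with the most reads, Tubb5, Vim, Actg1 and Actb, held 43.7% of the members' reads. At the other end, 5 members had 0 reads (8253 of all protein-coding genes, 37.4%, had 0) and 3 had between 1 and 9.

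**Figure D1:**
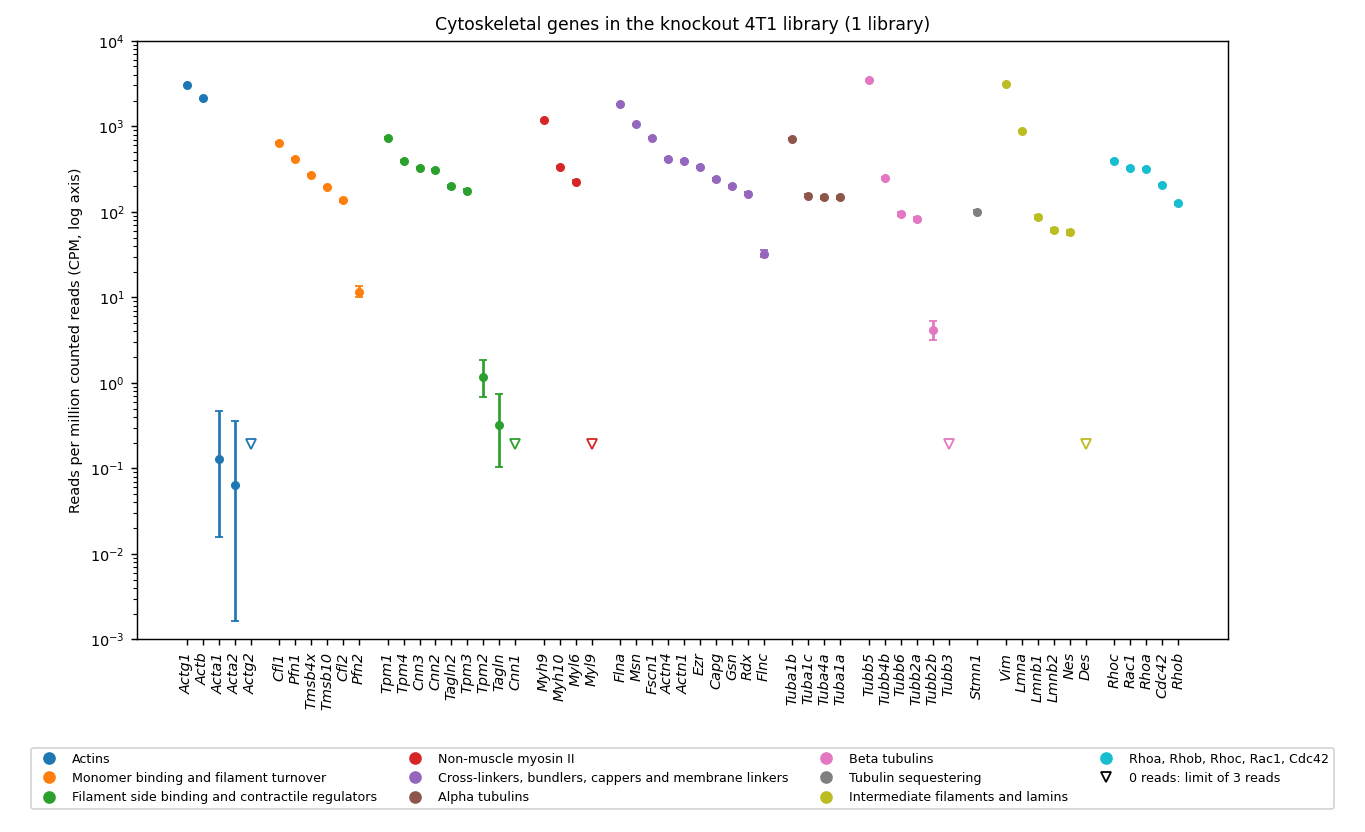
Reads as CPM, the count scaled to a library total of 1000000 (log axis), of the 56 members in the knockout library, grouped by role and ordered within each group. Points are the library's values, and bars are two-sided exact Poisson 95% intervals (counting error only). Open triangles mark the one-sided limit of 0.193 CPM for the 5 members with 0 reads. The two-sided limit for 0 reads is 0.237 CPM. Most groups have members above 100 CPM, and the muscle actins, Tagln, Cnn1, Myl9, Tubb3 and Des lie at the bottom.

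**Figure D2:**
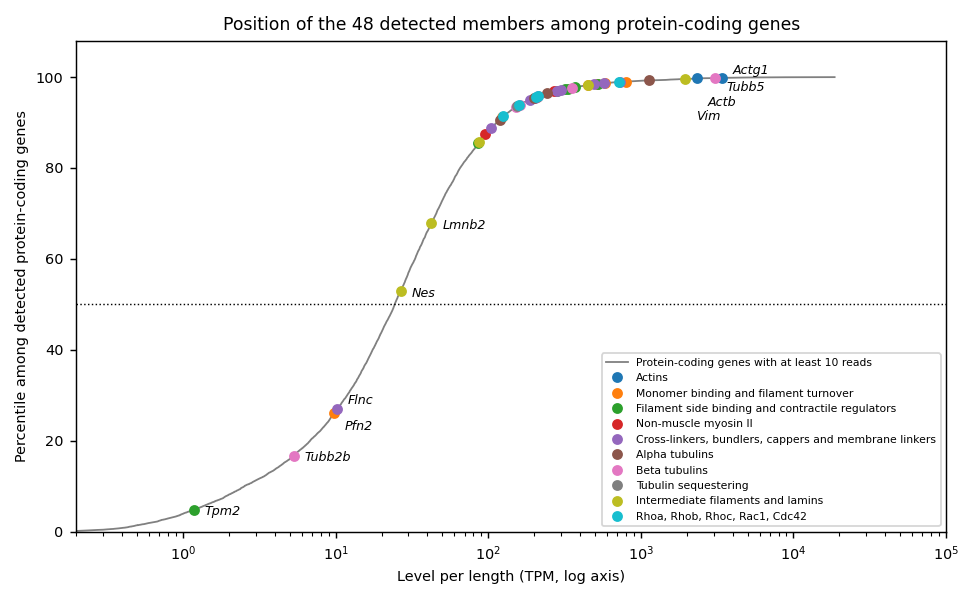
Level per length (TPM, log axis) against percentile among the 11497 detected protein-coding genes (grey line), with the 48 detected members as points coloured by group. The dotted line is the median. The 4 detected members below it are Flnc, Pfn2, Tubb2b and Tpm2.

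Actin was almost wholly of the cytoplasmic kind. Actg1, which encodes gamma cytoplasmic actin (chromosome 11, 120345690 to 120348542, minus strand, mm10), had 47222 reads, or 3034 CPM (exact Poisson 95% interval 3006 to 3061). Actb, which encodes beta cytoplasmic actin (chromosome 5, 142903115 to 142906754, minus strand), had 32875 reads, or 2112 CPM (2089 to 2135). Actg1 was the higher of the pair, 1.45-fold per length (1.43 to 1.47 by counting error). By TPM the Actg1 level of 3387 was the highest of all 56 members. The muscle actins were at the limit of detection. Acta1, the skeletal muscle actin, had 2 reads, Acta2, the smooth muscle actin that marks myofibroblasts, had 1, and Actg2, the enteric smooth muscle actin, had 0, which allows up to 0.193 CPM. Sequence found nowhere else in the annotated transcripts is called own sequence here, and by 100-base stretches these 3 transcripts were wholly their own. In the coding part of Actg1 8.09% of the stretches were own, against 100% after the coding part and 98.1% in the coding part of Actb. Dividing by the length of own stretches, in place of the full length, moved Actg1 from 59.1% to 74.5% of the family's level. That division applies only if reads of shared stretches were left out of the counts, which the sources used here do not say.

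Genes that supply and recycle actin monomers were abundant, with the more widely expressed gene of the cofilin and profilin pairs the higher one. Cfl1, the non-muscle cofilin that severs filaments, had 9887 reads and a TPM of 801, at percentile 99.01. Cfl2, the cofilin typical of muscle, had 2118 reads and a TPM of 124. Cfl1 was 6.48-fold higher per length (6.18 to 6.79 by counting error), 11.95-fold by transcript length and 4.67-fold by reads alone. Pfn1, the ubiquitous profilin, which delivers monomers to growing ends, had 6516 reads and a TPM of 517. Pfn2, a profilin best known from brain, had 182 reads, and its TPM of 9.8 was 52.7-fold lower, a ratio that was 97.4 by transcript length and 35.8 by reads alone. The beta-thymosins, small proteins that sequester monomers, were both high. Tmsb4x had 4198 reads and a TPM of 584, and Tmsb10 had 3023 reads and a TPM of 452. Their order turned with the length used: with transcript length the ratio of Tmsb4x to Tmsb10 was 0.696 in place of 1.29.

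Among proteins that lie along the actin filament, the non-muscle versions were high and the smooth muscle versions were low or at 0. Tpm1, a tropomyosin gene that yields many splice forms, had 11328 reads, the most of this group, and a TPM of 333. Tpm4, a tropomyosin of non-muscle cells, had 6046 reads and a TPM of 523. Which of the pair was higher depended on the length used, with a ratio of Tpm1 to Tpm4 of 0.636 by deposited length and 2.19 by transcript length. Tpm3 had 2744 reads and a TPM of 86. A further gene with nearly the same sequence, Tpm3-rs7, had more reads than Tpm3 and is described in the closing section. Tpm2, a tropomyosin abundant in muscle, had 18 reads, or 1.16 CPM (0.685 to 1.83), at percentile 4.75. Counts per gene do not separate the splice forms.

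The calponins and transgelins showed the same division. Cnn3, the acidic calponin, had 5067 reads and a TPM of 318. Cnn2, the calponin of non-muscle cells, had 4800 reads and a TPM of 372, whereas Cnn1, the smooth muscle calponin, had 0. Tagln2, the transgelin widely expressed outside muscle, had 3078 reads and a TPM of 282. Tagln, the smooth muscle transgelin, had 5 reads, or 0.321 CPM (0.104 to 0.75). Exons of other annotated genes, counted together, cover 67.9% of the merged exons of Tagln, with the largest overlap from an antisense gene, Gm48529. The protocol mentions no strand marking, so even these 5 reads cannot be assigned to Tagln with certainty. Whether reads on the overlapping exons were left out of its count is not known here.

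Myosin II is the motor that contracts actin filaments, and of its heavy chains the IIA form was the higher. Myh9, which encodes that chain, had 18349 reads and a TPM of 271, at percentile 96.9. Myh10, which encodes the IIB chain, had 5225 reads and a TPM of 95.3, so that Myh9 was 2.84-fold higher per length (2.75 to 2.93). Myl6, the essential light chain of non-muscle and smooth muscle myosin, had 3510 reads. Its TPM of 210 rose to 676 when transcript length replaced the deposited length, which moved Myl6 above Myh9 (329). Myl9, a regulatory light chain abundant in smooth muscle, had 0 reads. The regulatory light chain genes Myl12a and Myl12b, which are not in the list, had 1753 and 104 reads (Myl12b was chosen after its value was seen), and both share exons with another gene of the table on the same strand.

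Genes whose proteins cross-link, bundle, cap or sever filaments or tie them to the membrane took 83738 reads, 0.538% of the library. That was the most of any group by reads, but by summed TPM the group (3090) was below the actins (5727) and the beta tubulins (3737). Flna, filamin A, which links actin filaments into networks and anchors them at membrane proteins, had 28161 reads and a TPM of 571. Flnc, the filamin typical of striated muscle, had 506 reads, a TPM of 10.3 and percentile 26.9, and Flna was 55.7-fold higher per length (51 to 60.9). Fscn1, fascin, which bundles the filaments of filopodia and is widely studied in invasive carcinoma, had 11492 reads and a TPM of 727, the highest of the group. Actn1 and Actn4, the non-muscle alpha-actinins, had nearly equal levels, with 6177 and 6471 reads and TPMs of 213 and 201. Their order depended on the length used. Capg and Gsn, gelsolin family members that cap or sever filaments, had 3718 and 3096 reads and TPMs of 280.3 and 187.

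The ERM proteins, which fasten actin to the plasma membrane, were all detected. Msn, moesin, had 16378 reads and a TPM of 494. Ezr, ezrin, which is the typical ERM protein of epithelia, had 5214 reads and a TPM of 302. Rdx, radixin, had 2525 reads and a TPM of 104. Moesin exceeded ezrin 1.63-fold per length (1.58 to 1.69) and radixin 4.76-fold (4.56 to 4.96). With transcript length the order of the 3 was unchanged, and moesin exceeded ezrin 2.59-fold and radixin 7.39-fold. By reads alone it exceeded ezrin 3.14-fold.

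Alpha tubulin reads fell mostly on Tuba1b. Tuba1b (chromosome 15, 98931425 to 98934565, minus strand) had 11153 reads and a TPM of 1134, at percentile 99.3. The remaining 3 genes were close to one another in reads: Tuba1c had 2410, Tuba4a 2314 and Tuba1a 2306. Their TPMs were 200.9 for Tuba1c, 119 for Tuba4a and 244 for Tuba1a. Tuba1b made up 66.8% of the family's level per length. This split is uncertain, because 8.85% of the 100-base stretches in the coding part of Tuba1b, 18.6% of those of Tuba1a and 19.4% of those of Tuba1c were own. A read of the coding part can thus often not be assigned, and how such reads were counted is not given in the sources used here. Gm49450, annotated across Tuba1b and Tuba1a and wholly made of sequence found in the alpha tubulin transcripts, had 18 reads (chosen after its value was seen). It lies on the same strand and has the largest exon overlap with both. Exons of other annotated genes, counted together, cover 27.4% of the merged exons of Tuba1b and 26.2% of those of Tuba1a. Exons of other annotated genes, counted together, cover 37.3% of the merged exons of Tuba4a, with the largest overlap from Stk16, on the opposite strand with 865 reads.

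A single gene dominated beta tubulin. Tubb5 (chromosome 17, 35833921 to 35838306, minus strand), a beta tubulin of dividing and many other cells, had 53536 reads, the most of all members, which is 3439 CPM (3410 to 3469). It made up 82.1% of the family's level per length, and its transcript was wholly own sequence. Tubb4b, a broadly expressed beta tubulin, followed with 3854 reads and a TPM of 352, 8.72-fold lower (8.44 to 9.01). That ratio was 13.9 by reads alone and 6.05 by own-stretch length. Tubb6 had 1480 reads and a TPM of 161, and Tubb2a had 1278 reads and a TPM of 151. Tubb2b, a beta tubulin of the developing brain, had 64 reads and a TPM of 5.32 although it lies 48741 bases from Tubb2a and shares much of its sequence. Tubb3, the beta tubulin used as a neuronal marker, had 0 reads, and its transcript was wholly own sequence too. Stmn1, stathmin, which sequesters tubulin dimers and is high in proliferating cells, had 1567 reads and a TPM of 155.

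Beta tubulin exceeded alpha tubulin 2.2-fold when the TPMs of the listed genes were summed, although the proteins pair as equal partners. The ratio was 3.31 without length correction and 2.5 with transcript length. It turned to 0.782 when each gene was divided by the length of its own stretches. The levels of the families therefore cannot be ordered from these counts.

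Vimentin was the highest of the listed intermediate filament and lamin genes, which include no keratin. Vim (chromosome 2, 13573927 to 13582826, plus strand) had 48515 reads, or 3117 CPM (3089 to 3145), and a TPM of 1950. The transcript was wholly own sequence. Nes, nestin, an intermediate filament protein of progenitor cells, had 900 reads and a TPM of 26.7, just above the median at percentile 52.9. It fell below the median, to percentile 41.3, when transcript length was used. Des, desmin, the intermediate filament protein of muscle, had 0 reads. Lmna, which encodes lamins A and C, had 13841 reads and a TPM of 452, 4.31-fold below Vim (4.23 to 4.4). The B-type lamins, which remain attached to the nuclear membrane, were lower. Lmnb1 had 1355 reads and a TPM of 87.2, and Lmnb2 had 954 reads and a TPM of 42.4. Lmna exceeded Lmnb1 5.18-fold per length (4.9 to 5.48), 9.2-fold by transcript length and 10.2-fold by reads alone, and Lmnb1 exceeded Lmnb2 2.06-fold (1.89 to 2.24).

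The switch genes Rhoa, Rhob, Rhoc, Rac1 and Cdc42 were all detected at percentile 91.4 or above. Rhoc, which is often linked to metastasis, had 6103 reads and a TPM of 719. Rac1, which drives lamellipodia through the WAVE complex, had 5009 reads and a TPM of 212. Rhoa, which activates ROCK kinases and formins, had 4927 reads and a TPM of 125. Cdc42, which drives filopodia and cell polarity, had 3214 reads and a TPM of 207. Rhob, an endosomal relative with a short-lived mRNA, had 1960 reads and a TPM of 159. Rhoc exceeded Rhoa 5.74-fold by deposited length (5.52 to 5.96) but 2.26-fold by transcript length and 1.24-fold by reads alone. The deposited length of Rhoa, 7494 bases, is far longer than its main transcript of 2197. Whether Rhoa or Rhob was higher turned with the same choice, from a ratio of 0.788 to 2.69. Of the merged exons of Rac1, 51.4% lie under exons of other annotated genes, counted together. The largest overlap is with Daglb on the opposite strand, a gene with 275 reads.

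**Figure D3:**
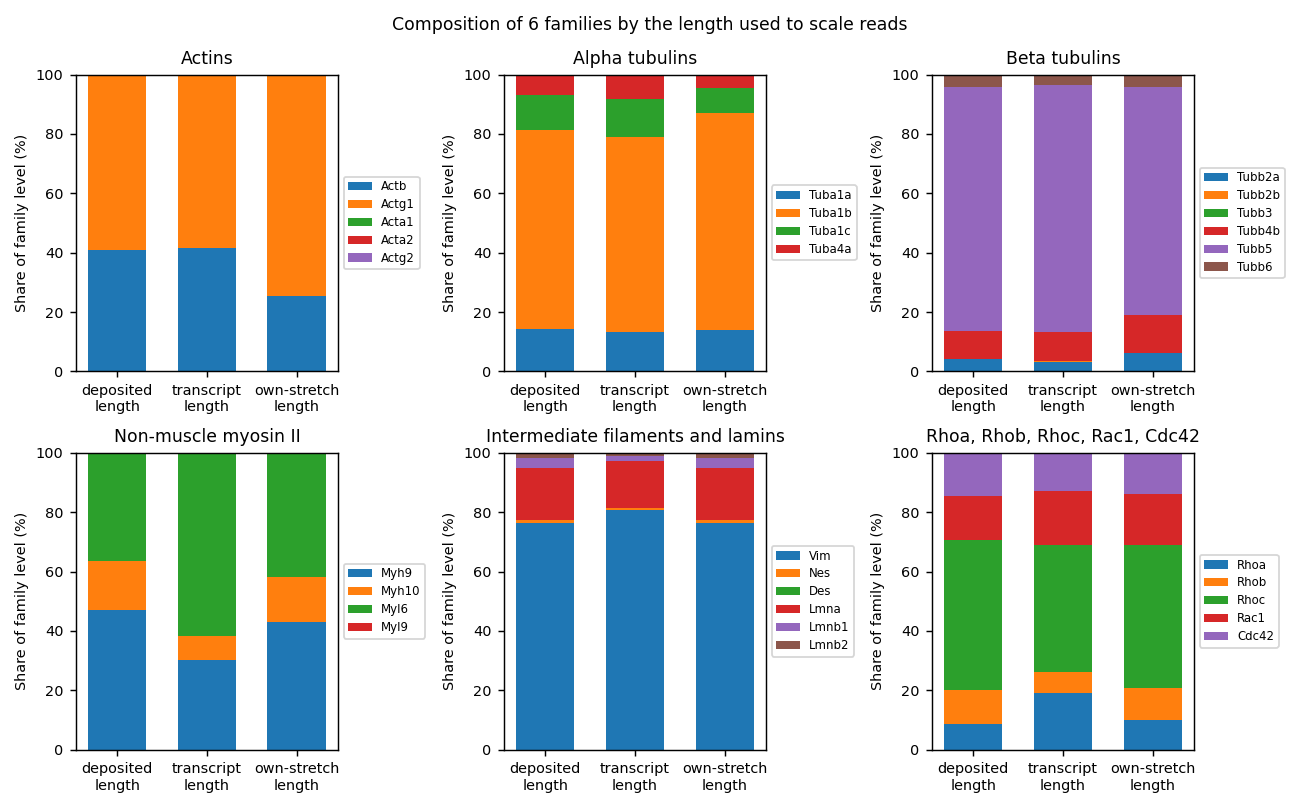
Share of each member in its family's level (%) in 6 families, with reads divided by the deposited length, by the length of the transcript with the longest coding part, or by the deposited length times the share of own 100-base stretches. Bars start at 0 and sum to 100 in each family. Actg1, Tuba1b, Tubb5, Vim and Rhoc lead their families under each of the 3 lengths, whereas Myh9 and Myl6 change places.

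How much sequence a gene shares with others bears on how its reads could be assigned. Of the 56 members, 33 had only own 100-base stretches, and 41 had at least 90% own. Tuba1b (30.5%), Tuba1a (34.2%), Tuba1c (46.6%) and Actg1 (48.9%) had the least. In all 4 the shared stretches lay outside the part after the coding sequence, where own sequence reached 100%. Stmn1 had the same arrangement, with 28.7% own stretches in its coding part. Tuba4a had the opposite one: all stretches of its coding part were its own, and 1.39% of those after it, where the Stk16 exons lie.

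**Figure D4:**
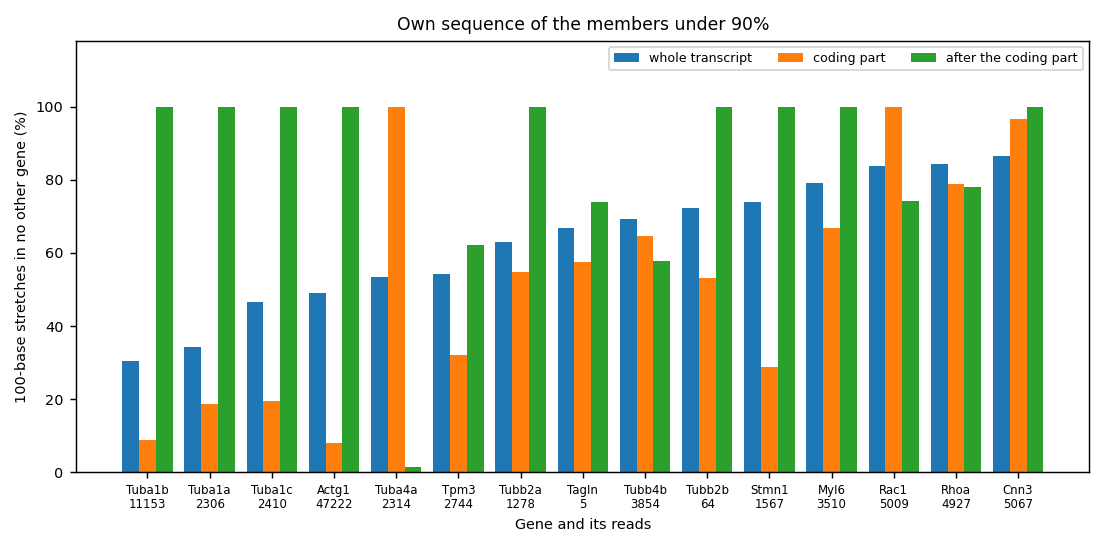
Percentage of 100-base stretches that are own sequence, for the whole transcript, its coding part and the part after it, in the 15 members below 90% over the whole transcript. Numbers under the names are reads in the knockout library. In Tuba1b, Tuba1a, Tuba1c and Actg1 the coding bars are below 20% and the bars after the coding part reach 100%.

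In 19 further genes of the table, at least 50% of the 50-base stretches also occur in members' transcripts. Of these, Tpm3-rs7 had 4846 reads and was the one with more reads than its closest member, Tpm3. Reads of the other copies were few beside those of their members, for example 523 for Gm12715 against 47222 for Actg1.

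**Figure D5:**
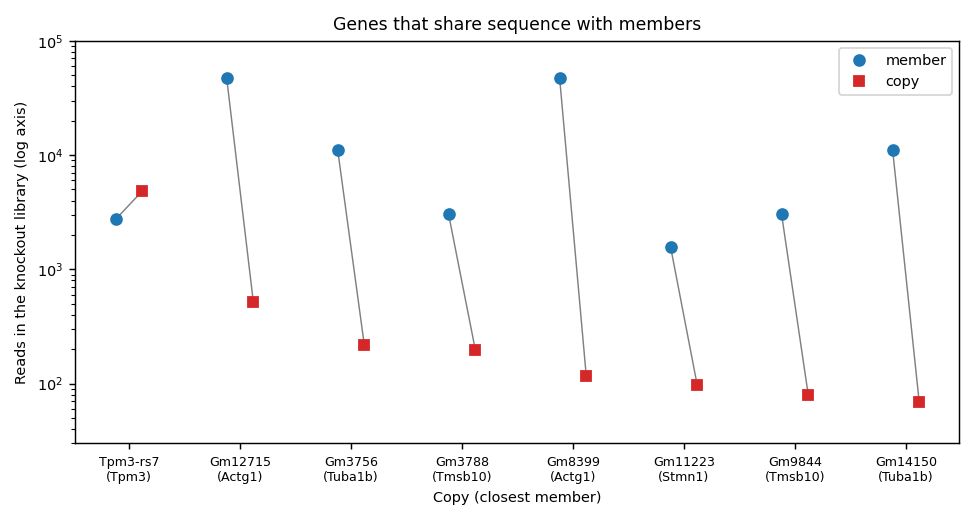
Reads in the knockout library (log axis) of the 8 copies with the most reads (red squares) and of the member each shares most sequence with (blue circles). Tpm3-rs7 lies above its member with 4846 against 2744 reads, and the other 7 copies lie below theirs.

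Several members are neighbours in the genome, with 9 pairs within 500000 bases, and neighbours did not have like levels throughout. Actb and Fscn1 lie 53589 bases apart and were both above percentile 98. Tuba1b, Tuba1a and Tuba1c form a cluster on chromosome 15 in which all were above percentile 95. Capg and Tmsb10, 394364 bases apart, lay at percentiles 97 and 98.2. Tubb3 and Acta1 lie 469754 bases apart and were both low, with 0 and 2 reads. In contrast, Tuba4a had 2314 reads and Des, 140464 bases away, had 0. Tubb2a and Tubb2b, 48741 bases apart, lay at percentiles 93.4 and 16.7. Nes and Lmna, 499696 bases apart, lay at percentiles 52.9 and 98.2.

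SRF, a transcription factor that senses free actin monomers through its coactivators, binds the CArG box, and many actin genes are known as its targets. Actb, Actg2, Tagln, Tubb2b, Tubb6, Stmn1, Lmnb1 and Rac1 are not in the RefSeq promoter table (GRCm38.p6) and were not searched. The 48 members in it were searched for the strict form of the box, CCWWWWWWGG with W for A or T. The search covered both strands from 250 bases before to 50 after each annotated start. Boxes that differ from this form by a base, or lie further away, were not counted, so a gene without a match may still have one. The strict box was found in 5 of the 48 members, or 10.4%, against 1.81% of the 27025 genes in the table. They are Actg1, Cnn2 and Myl6, which were at percentile 95.7 or above, and Acta1 and Myl9, which had 2 and 0 reads. The box was thus present in genes at both ends of the range, as the windows of 40 bases below show, with the box in capitals. They lie at chr11:120348561-120348600 (minus strand), chr10:79988529-79988568 (plus), chr8:123894824-123894863 (minus) and chr2:156775288-156775327 (plus).
Actg1: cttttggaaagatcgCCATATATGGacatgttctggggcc
Cnn2: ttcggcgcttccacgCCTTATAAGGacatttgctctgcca
Acta1: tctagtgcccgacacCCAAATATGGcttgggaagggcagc
Myl9: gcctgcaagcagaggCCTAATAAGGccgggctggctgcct
A match is only a run of letters, and binding was not measured. Srf had 1092 reads and a TPM of 72, at percentile 81.9. Its widely expressed coactivator genes Mkl1 and Mkl2 had 965 and 699 reads, and Myocd, the coactivator of smooth and cardiac muscle, had 0. Of these 4 genes 3 were detected, and Srf and Mkl1 exceeded the median. Among all protein-coding genes 52.2% were detected and 26.1% exceeded it.

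Other cytoskeletal genes, taken from 12 lists, were detected about as often as the members: 145 of 181 had at least 10 reads, or 80.1%. But 96 of the 181, or 53%, exceeded the median TPM. Among all protein-coding genes 52.2% were detected and 26.1% exceeded that median, and the counts of each list below stand beside these shares. The Arp2/3 complex, which nucleates branched actin, was detected in 9 of 10 genes, all 9 above the median. Its highest members were Arpc5 (TPM 407), Arpc2 (329) and Arpc1b (174). Of 16 WASP and WAVE regulators, which switch that complex on, 10 were detected and 7 exceeded the median, led by Brk1 (244), Nckap1 (140.2) and Abi1 (97.2). Formins and Ena/VASP proteins, which lengthen unbranched filaments, were detected in 13 of 14 genes, 8 of them above the median, led by Vasp (153), Inf2 (146) and Fmnl1 (96.3).

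Further turnover and cross-linking genes were mostly detected, where 52.2% of all protein-coding genes were detected and 26.1% exceeded the median. Of 25 capping, severing and turnover genes, 21 were detected and 14 exceeded the median, led by Coro1b (TPM 344), Dstn (318) and Cttn (264). Of 17 cross-linkers and linkers, 15 were detected and 11 exceeded the median, led by Lasp1 (229), Zyx (160) and Pls3 (143). Of 19 myosin light chain, kinase and phosphatase genes, 17 were detected and 12 exceeded the median. The highest were Myl12a (99.5), the phosphatase subunit Ppp1r12b (92.9) and the kinase Pak2 (80.02).

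Most of the remaining tubulins and intermediate filaments were below the median. Of 10 tubulin genes outside the list, 5 were detected, which is near the 52.2% of all protein-coding genes. The median was exceeded by 1, Tubg1 (TPM 93.1), whose gamma tubulin nucleates microtubules, and by 26.1% of all protein-coding genes. Tubb4a (8.9) and Tube1 (6.23) followed. Of 26 folding cofactors and microtubule-binding genes, 22 were detected and 13 exceeded the median, led by the cofactor Tbca (244), the microtubule-associated protein gene Map4 (60.7) and the cofactor Tbcb (50.2). Of 10 intermediate filament genes other than keratins, 3 were detected and 0 exceeded the median, and the highest, Sync, had a TPM of 3.6, followed by Synm (1.01) and Gfap (0.588). All 14 nuclear envelope partners of lamins were detected and 11 exceeded the median, led by Banf1 (330.4), Lemd2 (126) and Emd (88.3).

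Marker lists, chosen with earlier results of these data known, were set beside the labelled cell type and are no test of it. For comparison, 52.2% of all protein-coding genes were detected and 26.1% were above the median. All 6 genes of the mammary carcinoma list were detected and above the median, with a summed level of 2837 CPM. The keratin genes Krt18 and Krt8 had 16451 and 10318 reads and TPMs of 2183 and 1005, against 1950 for Vim. Krt7 had 9329 reads, Cdh1 6426, Krt19 991 and Epcam 645. Of 10 smooth muscle, pericyte and myofibroblast markers 4 were detected, with a summed level of 129 CPM. Smtn, which many non-muscle cells also express, had 1889 reads and a TPM of 82.2, whereas Postn had 83, Cspg4 17 and Synpo2 11. Lmod1 had 5 reads and Myh11 4, and Pdgfrb, Rgs5, Myocd and Col3a1 had 0.

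Of 8 neuronal markers 1 was detected, Map2 with 1003 reads of a summed level of 64.7 CPM. Syp and Syt1 had 2 reads each, and Stmn2, Gap43, Snap25, Rbfox3 and Nefl had 0. Of 8 leukocyte markers 1 was detected, the plastin gene Lcp1 with 123 reads of a summed level of 8.35 CPM. Coro1a had 6 reads and Itgam 1, and Ptprc, Cd3e, Adgre1 and Rac2 had 0. Of 10 skeletal and cardiac muscle markers 2 were detected, Tnnt2 with 7430 reads and Ttn with 37, and the summed level was 480.2 CPM. Tnnt3 had 7 reads and Ckm 1, and Actc1, Myog, Myod1, Myh1, Myh4 and Myh6 had 0. Among the members described above as muscle or neuronal forms, Acta1, Acta2, Actg2, Tagln, Cnn1, Myl9, Des and Tubb3 were below the detection minimum. Others described as typical of muscle or brain were detected: Cfl2 with 2118 reads, Flnc with 506, Pfn2 with 182, Tubb2b with 64 and Tpm2 with 18. In the muscle, myofibroblast and neuronal marker lists, Tnnt2 had 7430 reads, Smtn 1889 and Map2 1003, and each other marker had 83 reads or fewer.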

How the data were processed

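Poly(A) RNA of 1 knockout sample of 4T1 cells was analysed. The authors deposited raw read counts per gene beside positions and gene lengths. The tools named are HISAT2 2.0.5, featureCounts 1.5.0-p3 and CASAVA, and the build is mm10, per the submitters' processing notes. Not given in the sources used here are the strand setting, the treatment of multi-mapped reads and the annotation release. The deposited length equalled the merged exon length in GENCODE vM21 (GRCm38) for 53 of the 56 members. The table has 1 other column of per-sample values, which was not used. With 1 library there was no test.

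From the counts, CPM used all 15565990 counted reads and TPM used the deposited length. Intervals are exact Poisson or binomial 95% intervals and cover counting error only, since reads without molecular identifiers are not independent molecules. A count of 0 allows up to 3 reads, which is a one-sided limit. Members that differ were compared by ratios with exact binomial intervals. Own sequence is the percentage of 100-base stretches of a transcript found, on either strand, in no transcript of another gene. It was taken for the GENCODE basic transcript with the longest coding part, which also gave the transcript length. Coding sequences were aligned globally. The interval code was run on simulated Poisson counts and the own-sequence formula on made-up sequences. This checks the code only, not the spread of a real library. The members and lists were chosen with earlier results of these data known. Some results of the lists are not reported here. All members are named, the 3 members of each other list with the highest TPM, the markers, and the 8 copies with the most reads. A gene named beyond these was picked with its value in view. Python 3.11.15, numpy 2.4.6, pandas 2.3.3, scipy 1.17.1, biopython 1.88 and matplotlib 3.10.9 were used.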

Additional observations from a re-analysis of the deposited data

Results flagged for a closer look

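The results here are signals in genes outside the 56 members that share at least 50% of their 50-base stretches with the members' transcripts. The table holds 19 such genes. The 8 with the most reads are given, each with more than 3 reads, the limit set by a count of 0. Of the 19, 11 are processed pseudogenes, which together had 1329 reads, or 0.319% of the members' reads.

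Tpm3-rs7, an intronless tropomyosin gene annotated as protein-coding (chromosome 14, 113314608 to 113316754, plus strand), had 4846 reads, or 311 CPM (303 to 320.2), against 2744 for Tpm3. Its TPM of 430.3 lay at percentile 98.1. It was 99.1% identical to a Tpm3 transcript over 2108 aligned positions, with 19 unmatched, and over the coding part 3 of 744 positions differed. The 60 bases that hold these 3 differences, in capitals, show how little separates the pair.
Tpm3: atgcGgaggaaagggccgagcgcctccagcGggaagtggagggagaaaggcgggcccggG
Tpm3-rs7: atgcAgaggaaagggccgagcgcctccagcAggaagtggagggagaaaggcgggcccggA
No other gene's exons overlap Tpm3-rs7. The source of its reads was not tested.

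Gm12715 had 523 reads and was 99.6% identical to Actg1, with 4 unmatched positions of 1128. Gm8399, a second Actg1 copy, had 117 reads. Gm3756 and Gm14150, copies of Tuba1b, had 219 and 69 reads. Gm3788 and Gm9844, copies of Tmsb10, had 199 and 80 reads, and the first is 6.58% of the Tmsb10 count. Gm11223, a copy of Stmn1 with 1 unmatched position of 450, had 97 reads, 6.19% of the Stmn1 count. The source of these reads was not tested. Adding the reads of processed pseudogenes to the closest member moved the Actg1 to Actb read ratio from 1.44 to 1.46.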

How the results depend on the processing

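No paired analysis was possible because only the knockout column could be tied to a sample, which also leaves no replicate to omit and no measure of the spread between cultures. Depth limits the members near 0 reads. The count of detected members was 51, 49 and 46 at minimums of 1, 3 and 100 reads. Of all protein-coding genes 37.4% had 0 reads, and their shares at minimums of 3 and 100 reads were not computed. The member counts at those minimums thus do not show whether the excess over all genes holds there. Under each length and reference tried, 43 or 44 members exceeded the median. The members' share of reads was 2.78% of protein-coding reads, 2.71% of reads outside the mitochondrial genome, 2.47% without the 10 genes with most reads (members among them left out) and 2.69% with processed pseudogenes added. Ratios of levels between members were recomputed by lengths chosen after seeing the data, and several turned. By transcript length they were 0.696 (Tmsb4x to Tmsb10), 1.11 (Actn4 to Actn1), 2.69 (Rhoa to Rhob), 2.19 (Tpm1 to Tpm4) and 1.27 (Cnn3 to Cnn2). Without length correction the last 4 were 1.05, 2.51, 1.87 and 1.06. By own-stretch length beta to alpha tubulin was 0.782. Of the percentiles of the 56 members, 45 left their counting interval with transcript length. Among the detected members the change ran from -11.6 points for Nes to 7.85 for Tpm3. Own sequence differed between 50-base and 100-base stretches in 32 members.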

Other observations

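Tnnt2, the cardiac form of troponin T, which regulates contraction through tropomyosin, stood apart from the other muscle markers. It had 7430 reads, or 477 CPM (467 to 488), and a TPM of 183 at percentile 94.8, while Actc1, Myog, Myod1, Myh1, Myh4 and Myh6 had 0 reads each. No exon of another annotated gene overlaps it. Map2, best known from dendrites of neurons, had 1003 reads where the neuronal genes Stmn2, Gap43, Snap25, Rbfox3 and Nefl had 0, and its TPM of 11.6 lay at percentile 29.5. Ppp1r12b, a myosin phosphatase targeting subunit described mainly in muscle, had 7298 reads, against 1455 for Ppp1r12a, its widely expressed relative, which was chosen after its value was seen. By TPM they had 92.9 and 34.6. Mylk, a myosin light chain kinase gene, had 31 reads (chosen after its value was seen).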
